A study of Mus musculus with 5 samples.

Results

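The genes described here encode the Rab GTPases, the small G proteins that direct vesicle traffic. They were taken from the deposited gene table as the rows whose symbol is Rab followed by a number and, where present, an isoform letter, which gave 59 genes of 24419 rows. All 59 matched a RefSeq gene, and the row named Rab1 corresponds to the RefSeq gene Rab1a. Another 26 rows have symbols that begin with Rab but name binding partners, antisense RNAs or relatives, and they were not counted as members.

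A Rab protein switches between an inactive, GDP-bound form and an active, GTP-bound form that sits on one kind of membrane through its prenyl anchor. Exchange factors load it with GTP, GTPase-activating proteins switch it off, the chaperones GDI and REP carry the prenylated protein through the cytosol, and effectors such as tethers and motors bind only the active form. In macrophages, Rab5 proteins act on early endosomes and new phagosomes, Rab7 on their maturation and fusion with lysosomes, Rab11 and Rab14 on recycling, and Rab8 and Rab10 on transport to the cell surface.

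The RNA came from C57BL/6 (C57BL6/J in the design text) mouse bone marrow-derived macrophages (BMMs), which are grown from bone marrow with the growth factor M-CSF (50 ng/ml for 5 days) and which in all samples were activated with 100 ng/ml of the bacterial product LPS. For 18 h they received either PBS (2 samples, titled as untreated) or 100 ng/ml recombinant Semaphorin 3G (Sema3G, 3 samples), a secreted protein that the study produced in transfected 293T cells and purified on Protein G. The comparison asks which genes the activated macrophages express differently when Sema3G is added. How many mice or cultures gave the samples is not stated in the labels, so the p-values below measure only the spread between these 5 samples. All 10 macrophage marker genes examined were above the test's filter and none passed the test, with summed levels of 13052 and 10074 CPM with PBS and of 9257 to 9732 CPM with Sema3G. Of 10 T and B cell markers 7 were at 0 in all libraries, and 6 of 7 mast cell and basophil markers were at 0. Neutrophil markers summed to 414 to 733 CPM, but only 2 of the 7 found, Mmp8 and Camp, were above the filter, and Elane and Ngp were at 0. Stromal markers summed to 16.7 to 52.2 CPM.

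Levels are counts of unique molecular identifiers (UMIs) per 1000000 UMIs of the library (CPM). Each UMI marks 1 captured 3′ end of an RNA, so that a long transcript does not collect more tags than a short one. Levels of different genes can be set side by side only as far as their 3′ ends lie within the annotation used for counting. That annotation was not given, and ends outside it would be missed, so the count of a gene may understate its level. The libraries held between 1798469 and 2215855 UMIs in total. At this depth 3 counts correspond to between 1.35 and 1.67 CPM in 1 library. The groups differed in composition. The ribosomal RNA precursor Rn45s took 1.01 and 3.19% of all UMIs with PBS and 6.31, 7.40 and 7.88% with Sema3G, and the share of UMIs on listed genes was 77.6 and 75.6% against 71.3, 67.1 and 65.9%. The part of this shift in the differences below was not tested, and fold changes of the members described are therefore also given with TMM scaling and over listed genes without Rn45s. As these are bulk samples, fewer cells of a type and less RNA per cell cannot be told apart.

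Rab transcripts were detected from 50 of the 59 genes, and 38 were found in every library. In all, 28693 UMIs were counted on Rab genes. The 9 genes at 0 in all 5 libraries were Rab15, Rab17, Rab25, Rab27b, Rab37, Rab3b, Rab3c, Rab40b and Rab9b. Several of these are known from epithelia, neurons or secretory cells, and a count of 0 in 9871723 UMIs allows a level of up to 0.304 CPM. Another 11 genes had 38 UMIs between them and at most 8 each, and they were too rare for the test. Among these was Rab20, a phagosome Rab, with 4 and 0 UMIs under PBS and 1, 0 and 0 under Sema3G. The remaining 39 genes had a mean of at least 1 CPM and were tested.

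A few genes made up most of the Rab transcripts. The 14 genes above 100 CPM held 79.6% of all Rab UMIs, and the first 8 of them held 56.6%. Another 19 genes lay between 10 and 100 CPM and 6 between 1 and 10 CPM. Rab14, which acts between the trans-Golgi network, early endosomes and phagosomes, ranked first in each of the 5 libraries, with 421 and 404 CPM with PBS and 435, 376 and 413 CPM with Sema3G. By the mean over all 5 libraries Rab5c, the early endosome Rab, came next, with 256 and 216 CPM against 234, 193 and 206 CPM, although Rab7 ranked above it in both PBS libraries (262 and 236 CPM). Rab10, which followed by that mean but ranked behind Rab31 in both PBS libraries and which serves recycling and transport to the surface, had 221 and 196 CPM against 204, 227 and 221 CPM. For Rab14, Rab5c and Rab10 the libraries of the groups overlapped on the deposited scale.

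**Figure D1:**
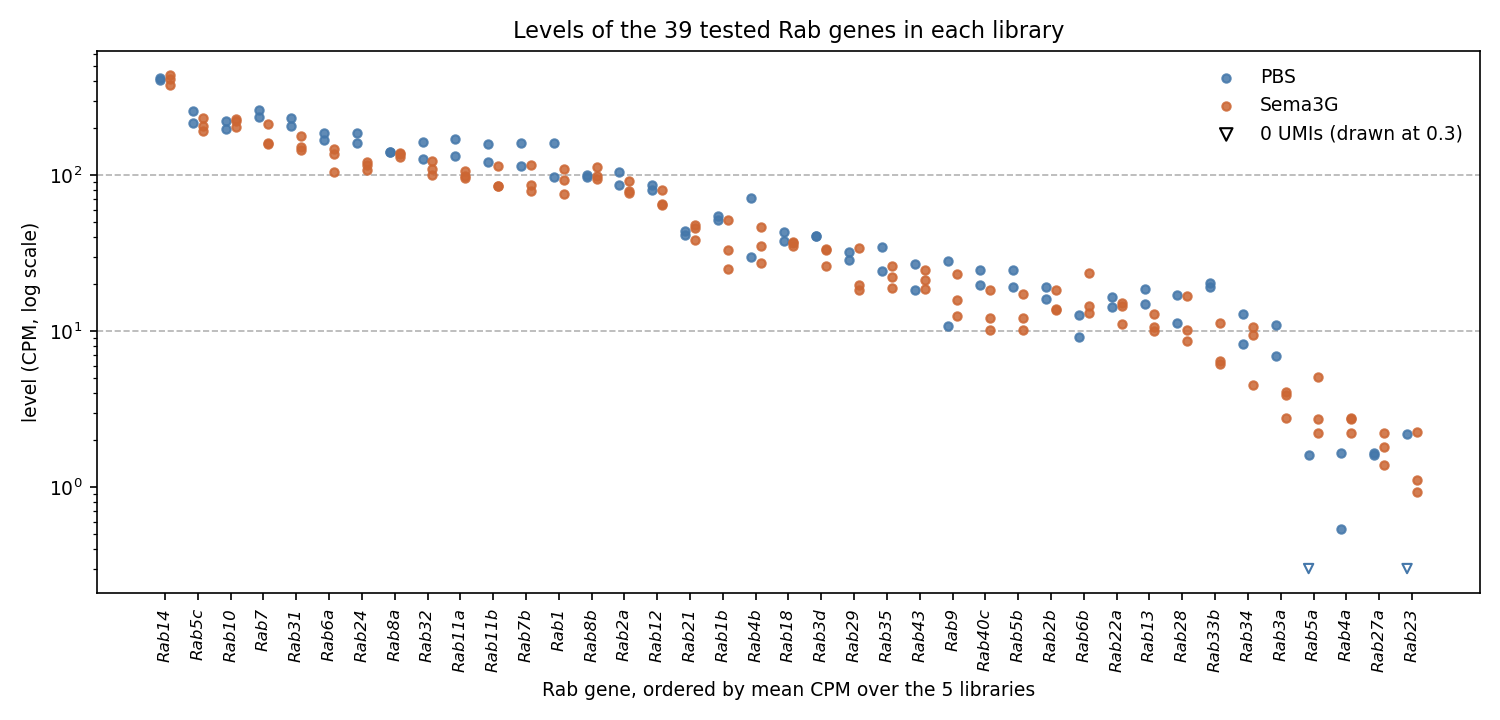
Level in CPM (log scale) of each of the 39 tested Rab genes in each library, with PBS in blue and Sema3G in orange, ordered by mean level. A point is 1 library and an open triangle marks a library with 0 UMIs. By mean level 14 genes lie above the dashed line at 100 CPM, 19 between the lines at 100 and 10 CPM, and 6 below.

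To show the control regions of the genes at the ends of these ranges, the 150 bases before the annotated start (RefSeq, GRCm38.p6, read 5′ to 3′ on the gene's own strand) are printed for the most abundant Rab gene, for the most and the least abundant isoform of Rab5, and for Rab33b, the gene with the lowest fold change. Capitals mark a GC box (GGGCGG on either strand) or an E-box (CACGTG).
Rab14, chr2:35201121-35201270, minus strand: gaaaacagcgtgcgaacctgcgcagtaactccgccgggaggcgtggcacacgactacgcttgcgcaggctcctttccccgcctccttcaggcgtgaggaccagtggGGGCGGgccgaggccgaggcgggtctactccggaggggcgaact
Rab5c, chr11:100738216-100738365, minus strand: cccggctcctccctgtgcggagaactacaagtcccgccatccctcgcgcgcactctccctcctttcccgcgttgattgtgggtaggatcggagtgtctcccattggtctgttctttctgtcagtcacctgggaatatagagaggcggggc
Rab5a, chr17:53479084-53479233, plus strand: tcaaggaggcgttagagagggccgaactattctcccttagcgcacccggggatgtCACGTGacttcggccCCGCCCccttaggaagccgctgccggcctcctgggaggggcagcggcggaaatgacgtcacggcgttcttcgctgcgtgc
Rab33b, chr3:51483816-51483965, plus strand: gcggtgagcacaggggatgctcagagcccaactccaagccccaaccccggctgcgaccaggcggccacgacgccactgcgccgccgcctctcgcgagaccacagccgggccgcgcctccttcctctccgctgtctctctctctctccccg

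Over the longer window from 250 bases before to 50 after the start, a GC box was present in 26 of the 35 tested Rab genes that have a window in the table (74.3%), beside 66.1% of the windows of all tested genes and 35.9% of all 27025 windows. An E-box was present in 4 of them (Rab21, Rab23, Rab24 and Rab5a), or 11.4% beside 10.8% of the windows of all tested genes. A TATAAA stretch was found in 1, Rab7, or 2.86% beside 6.54%. The palindrome TGACGTCA, known as the cAMP response element, was found in Rab5a, which is 2.86% beside 3.44%, and the ETS motif CCGGAAG in 4, or 11.4% beside 20.6%. Motifs were searched on both strands, and these shares describe letters in a window and not sites in use.

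No Rab gene passed the test between Sema3G and PBS. At an adjusted p below 0.05 (limma on log2(CPM + 1), Benjamini-Hochberg over 10088 genes) 0 of the 39 tested Rab genes were called, where 1.80% of all tested genes were called, 1.59% higher and 0.218% lower. On the recovered counts edgeR also called 0 of the 39. DESeq2 called 0 as well, but it gave no adjusted p for Rab5a, Rab4a, Rab27a and Rab23, which therefore could not be called. At an unadjusted p under 0.05 there were 12 Rab genes lower with Sema3G (30.8%, beside 14.2% of all genes) and 1 higher (2.56%, beside 6.83%). These 13 (33.3%, beside 21.1% of all genes in either direction) became 6 with TMM scaling (15.4%, beside 16.2%), 4 over listed genes (10.3%, beside 15.9%), 6 with edgeR (15.4%, beside 16.2%) and 1 with DESeq2 (2.56%, beside 9.44%), so that the Rab share was above that of all genes on the deposited scale and below it in the other 4. The median log2 fold change of the tested Rab genes was -0.36, where that of all tested genes was -0.22. Below 0 were 31 of the Rab genes (79.5%, beside 67.5% of all genes), and relative to the median of all genes 22 were below and 17 above. The 14 Rab genes above 100 CPM had a median of -0.46, beside -0.34 for all 1052 genes above that level, and the unadjusted 95% intervals of their log2 fold changes from limma reached between 0.38 and 0.47 to either side. When Sema3G replicate 1 was left out, limma called 4 Rab genes lower, namely Rab24 (adjusted p = 0.0481), Rab11b (0.0442), Rab1b (0.0419) and Rab7 (0.0380), where 4.36% of all genes were called lower. With TMM scaling added to that omission, 0 Rab genes were called, where 0.743% of all genes were called lower.

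**Figure D2:**
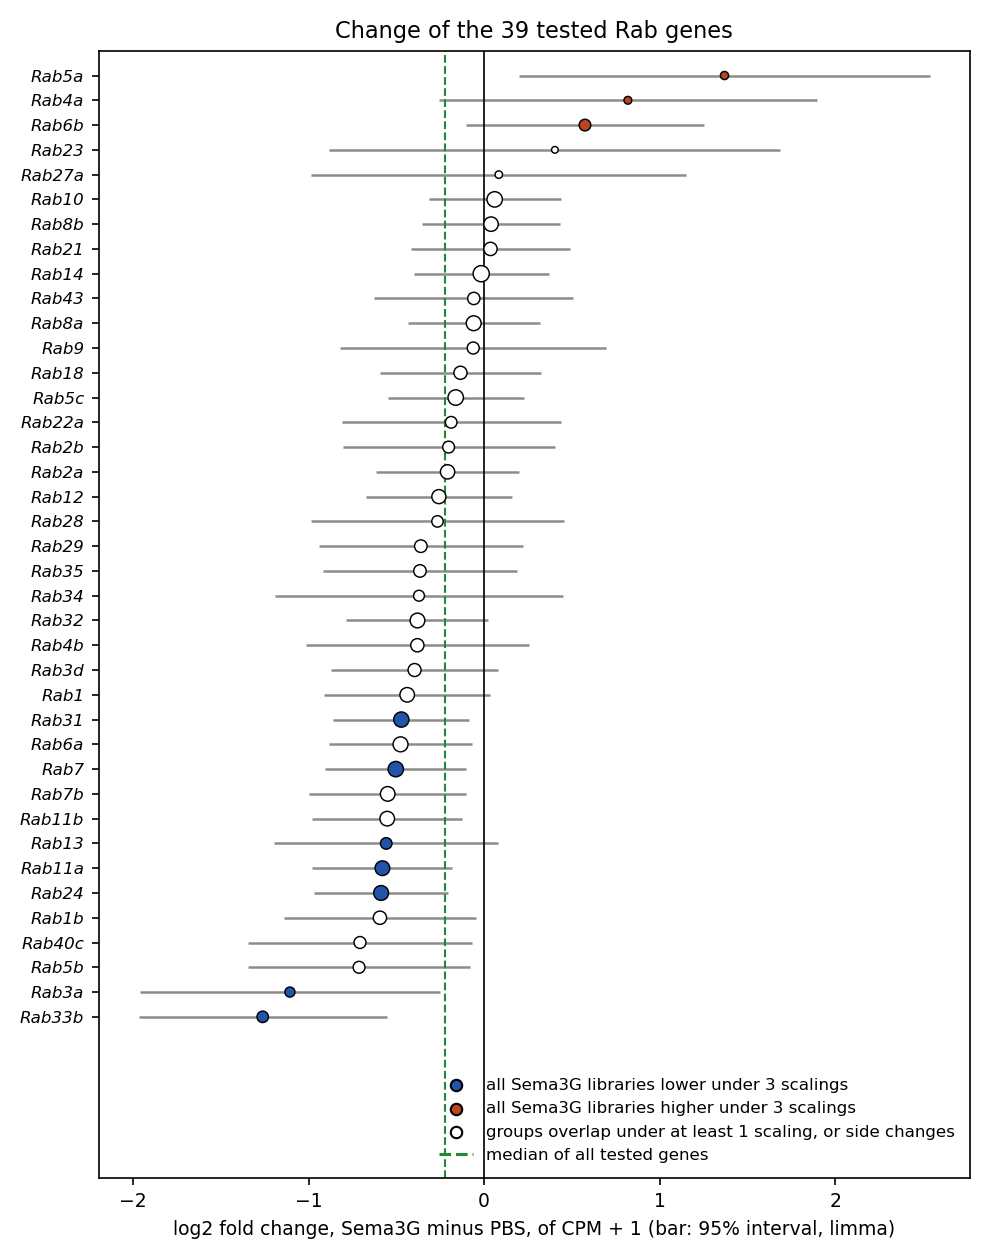
Log2 fold change (Sema3G minus PBS, on the scale of log2(CPM + 1)) of the 39 tested Rab genes with the 95% interval from limma; larger points have higher levels. Filled points mark the 10 genes whose groups did not overlap in the same direction under 3 scalings, 7 lower and 3 higher (beside 10.5% and 11.9% of all tested genes), and the dashed line is the median of all tested genes, -0.22.

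How the libraries separated depended on the scale. On the deposited scale the lower of the PBS libraries exceeded each Sema3G library for 16 Rab genes (41.0%, beside 26.5% of all genes) and the reverse held for 3 (7.69%, beside 11.9%). When CPM was taken over listed genes without Rn45s, 7 were lower (17.9%, beside 10.5%) and 9 higher (23.1%, beside 21.3%). With TMM scaling, which sets libraries against each other by a trimmed mean of gene ratios, 10 were lower (25.6%, beside 15.6%) and 6 higher (15.4%, beside 17.4%). Under all 3 scalings the same 7 genes were lower, Rab7, Rab31, Rab24, Rab11a, Rab13, Rab33b and Rab3a, and the same 3 were higher, Rab6b, Rab5a and Rab4a. These are 17.9% and 7.69% of the tested Rab genes, beside 10.5% and 11.9% of all tested genes that met the same rule. None of these 10 passed the test of any of the 3 scalings.

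Among the Rabs of early endosomes and recycling, the family of Rab5 consisted almost entirely of Rab5c. Rab5c held 92.1% of the UMIs of the family, Rab5b 6.86% and Rab5a 1.02%. Rab5b had 35 and 46 UMIs under PBS and 31, 27 and 22 under Sema3G (21.9 ± 3.82 and 13.2 ± 3.65 CPM, SD, n = 2 and 3), a log2 fold change of -0.71 (SE 0.30, adjusted p = 0.193 from limma), which was -0.52 with TMM scaling and -0.45 over listed genes. Rab5a had 0 and 3 UMIs against 4, 6 and 11, and its log2 fold change of 1.37 (SE 0.56, adjusted p = 0.180 from limma) was the highest of the tested Rab genes on the deposited scale. With TMM scaling it was 1.45 and over listed genes 1.79. It rests on few UMIs, and was 0.68 without PBS replicate 1, below Rab23 (1.24), Rab4a (1.21) and Rab6b (0.79) in the same fit, and 2.06 without PBS replicate 2. Pooled over libraries, the CPM of Rab5a with Sema3G was 4.18 times that with PBS, with an exact interval from counting error alone of 1.25 to 21.9. An exon of Pp2d1 overlaps Rab5a on the other strand. Thus the Rab5a and Rab5b libraries separated in opposite directions on the deposited scale. With TMM scaling and over listed genes those of Rab5a stayed separate, with Sema3G higher, and those of Rab5b overlapped. For Rab5c the libraries of the groups overlapped on each scale. Its log2 fold change was -0.16 (SE 0.18, adjusted p = 0.628 from limma), 0.044 with TMM scaling and 0.13 over listed genes.

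Rab31, which acts between the trans-Golgi network and endosomes, had 232 and 206 CPM with PBS and 178, 151 and 145 CPM with Sema3G (219 ± 18.6 and 158 ± 17.9, SD, n = 2 and 3), with a log2 fold change of -0.47 (SE 0.18, adjusted p = 0.164 from limma), which was -0.27 with TMM scaling and -0.18 over listed genes. Rab11a, the Rab of recycling endosomes, had 170 and 132 CPM against 98.4, 106 and 95.4 CPM, with a log2 fold change of -0.58 (SE 0.19, adjusted p = 0.115 from limma), or -0.37 and -0.29 on the other scales. For both genes the groups were separate, with Sema3G lower. Rab11b, its close relative, had 121 and 157 CPM against 115, 84.8 and 85.3 CPM, and held 48.2% of the UMIs of the pair (log2 fold change -0.55, with TMM scaling -0.35 and over listed genes -0.26). Rab4a, a Rab of fast recycling, had only 3 and 1 UMIs under PBS and 4, 6 and 6 under Sema3G, a pooled CPM ratio of 2.39 with a counting interval of 0.770 to 9.81 and an adjusted p of 0.363 from limma (log2 fold change 0.82, with TMM scaling 0.95 and over listed genes 1.15). Rab14 itself had a log2 fold change of -0.02 (SE 0.18, 95% interval -0.40 to 0.37), which was 0.19 with TMM scaling and 0.27 over listed genes. With TMM scaling and over listed genes alike, every Sema3G library of Rab14 was above both PBS libraries.

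Rabs of late endosomes, phagosomes and lysosome-related organelles were led by Rab7, with 262 and 236 CPM with PBS and 211, 158 and 160 CPM with Sema3G (249 ± 18.0 and 177 ± 30.1, SD, n = 2 and 3). Its log2 fold change was -0.50 (SE 0.19, adjusted p = 0.153 from limma), -0.30 with TMM scaling and -0.21 over listed genes. Rab24, which is linked to autophagy, had 161 and 186 CPM against 121, 108 and 117 CPM, with a log2 fold change of -0.59 (SE 0.18, adjusted p = 0.102 from limma), or -0.38 with TMM scaling and -0.30 over listed genes. The groups of both genes were separate under all 3 scalings. Rab32, known for traffic to lysosome-related organelles and to phagosomes holding bacteria, had 163 and 127 CPM against 123, 109 and 99.6 CPM. Its log2 fold change was -0.38 (limma adjusted p = 0.266), -0.18 with TMM scaling and -0.091 over listed genes. On the deposited scale it was -0.20 without PBS replicate 1 and -0.56 without PBS replicate 2. Rab38, its relative in pigment cells, had 1 UMI in all, so that Rab32 held 99.9% of the pair. Rab7b held 35.1% of the UMIs of Rab7 and Rab7b, and its share overlapped between the groups. The log2 fold change of Rab7b was -0.55 (adjusted p = 0.163 from limma), -0.35 with TMM scaling and -0.26 over listed genes.

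Among the secretory Rabs, Rab8a and Rab8b, which act in transport to the plasma membrane, had levels of 137 and 101 CPM, with log2 fold changes of -0.06 (95% interval -0.44 to 0.32) and 0.04 (-0.35 to 0.43). The 5 values of Rab8a were 140, 141, 137, 130 and 139 CPM in the order PBS 1 and 2 and Sema3G 1 to 3, a narrow range in which the groups nevertheless did not overlap on the deposited scale and lay in the opposite order over listed genes. Rab10 had a log2 fold change of 0.06 (95% interval -0.32 to 0.44). For Rab10 and Rab8b every Sema3G library was above both PBS libraries on the other scales, with log2 fold changes of 0.27 and 0.24 with TMM scaling and of 0.35 and 0.33 over listed genes, while those of Rab8a were 0.15 and 0.23. The Rabs of regulated secretion were scarce. Rab27a, which brings lytic granules and other lysosome-related organelles to the surface, had 3 and 3 UMIs under PBS and 4, 4 and 3 under Sema3G, and no UMI of Rab27b was seen. Rab3d was the main member of its family at 40.7 ± 0.020 CPM with PBS and 30.8 ± 3.95 CPM with Sema3G (SD, n = 2 and 3). Its log2 fold change was -0.40 (SE 0.23, adjusted p = 0.320 from limma), -0.20 with TMM scaling and -0.11 over listed genes. The groups of Rab3d were separate on the deposited scale, with Sema3G lower, and overlapped on the other scales. Rab3a, best known from synaptic vesicles, had 20 and 13 UMIs against 7, 9 and 6. All 3 Sema3G libraries had fewer UMIs of Rab3a than either PBS library, and its log2 fold change was -1.11 (SE 0.41, adjusted p = 0.144 from limma), -0.93 with TMM scaling and -0.91 over listed genes. An exon of Mpv17l2 overlaps Rab3a on the other strand, and since it is not given whether counting used strand, the reads of these genes cannot be told apart here. Such overlaps, on either strand, were found for 16 of the 39 tested Rab genes, among them Rab7, Rab6a, Rab24, Rab11a and Rab11b.

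One Rab of the endoplasmic reticulum and Golgi, Rab33b, recruits autophagy proteins at the Golgi. In the main test, limma on the deposited scale with all 5 libraries, Rab33b came closest to the threshold of all Rab genes. It had 37 and 36 UMIs under PBS and 11, 25 and 14 under Sema3G, or 19.8 ± 0.747 and 7.95 ± 2.89 CPM (SD, n = 2 and 3). Its log2 fold change of -1.26 (SE 0.34) had an adjusted p of 0.0653 from limma and of 0.114 from edgeR, and was -1.07 with TMM scaling (adjusted p = 0.108 from limma) and -1.02 over listed genes. Leaving out any 1 library gave fold changes between -1.51 and -1.12. Gm38160 has an exon on the opposite strand within Rab33b (chr3:51483966-51496228, GRCm38.p6), so the same limit on strand applies. Rab6a, the main Rab of retrograde Golgi traffic, had 187 and 169 CPM against 104, 146 and 136 CPM (log2 fold change -0.48, SE 0.20, adjusted p = 0.181 from limma), while its isoform Rab6b had 23 and 17 UMIs against 26, 29 and 51 (log2 fold change 0.57, SE 0.32, adjusted p = 0.312 from limma). With TMM scaling and over listed genes, Rab6a was at -0.27 and -0.19 and Rab6b at 0.77 and 0.86. Over listed genes the groups of Rab6a overlapped. Leaving out any 1 library on the deposited scale gave log2 fold changes of Rab6b between 0.33 and 0.79. Rab1b, which acts between the endoplasmic reticulum and the Golgi, had 94 and 102 UMIs against 92, 55 and 72 (log2 fold change -0.59, SE 0.26, adjusted p = 0.208 from limma, -0.39 with TMM scaling and -0.31 over listed genes), and Rab1 overlapped between the groups. Among the remaining genes, Rab40c, part of a ubiquitin ligase, had 45 and 37 UMIs against 33, 27 and 22 (log2 fold change -0.71 and limma adjusted p = 0.199, -0.51 with TMM scaling and -0.44 over listed genes), and Rab23, which acts in Hedgehog signalling, had 4 and 0 against 2, 5 and 2 (log2 fold change 0.40 and limma adjusted p = 0.726, 0.52 with TMM scaling and 0.71 over listed genes).

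The share of 1 isoform within its family does not depend on how a library is scaled. Rab6b made up 6.34 and 5.12% of the Rab6 UMIs with PBS and 12.2, 8.22 and 14.8% with Sema3G. Rab4a was 2.26 and 1.75% of Rab4 against 4.60, 7.14 and 9.23%, and Rab3a 21.3 and 14.6% of Rab3 against 10.6, 10.8 and 9.52%. Rab5b was 6.99 and 10.2% of Rab5 against 6.81, 5.87 and 4.59%. Rab5a was at most 0.664% of Rab5 with PBS against 0.879, 1.30 and 2.30%, from the few UMIs given above. For each of these 5 isoforms the groups did not overlap. They did overlap for Rab5c, the main isoform of Rab5, and for the isoforms of Rab1, Rab2, Rab7, Rab8, Rab11 and Rab33 and the pair of Rab32 and Rab38. With 2 against 3 samples an exact two-sided permutation test cannot give less than 0.2, the value of all 5. Of the 18 shares compared, which include those of the compartments below, 8 had this value, and their adjusted p was 0.45. Separate groups were also frequent among the shares of single tested genes in all Rab UMIs. Of these, 8 were separate with Sema3G lower, 10 were separate with Sema3G higher, and 21 overlapped.

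**Figure D3:**
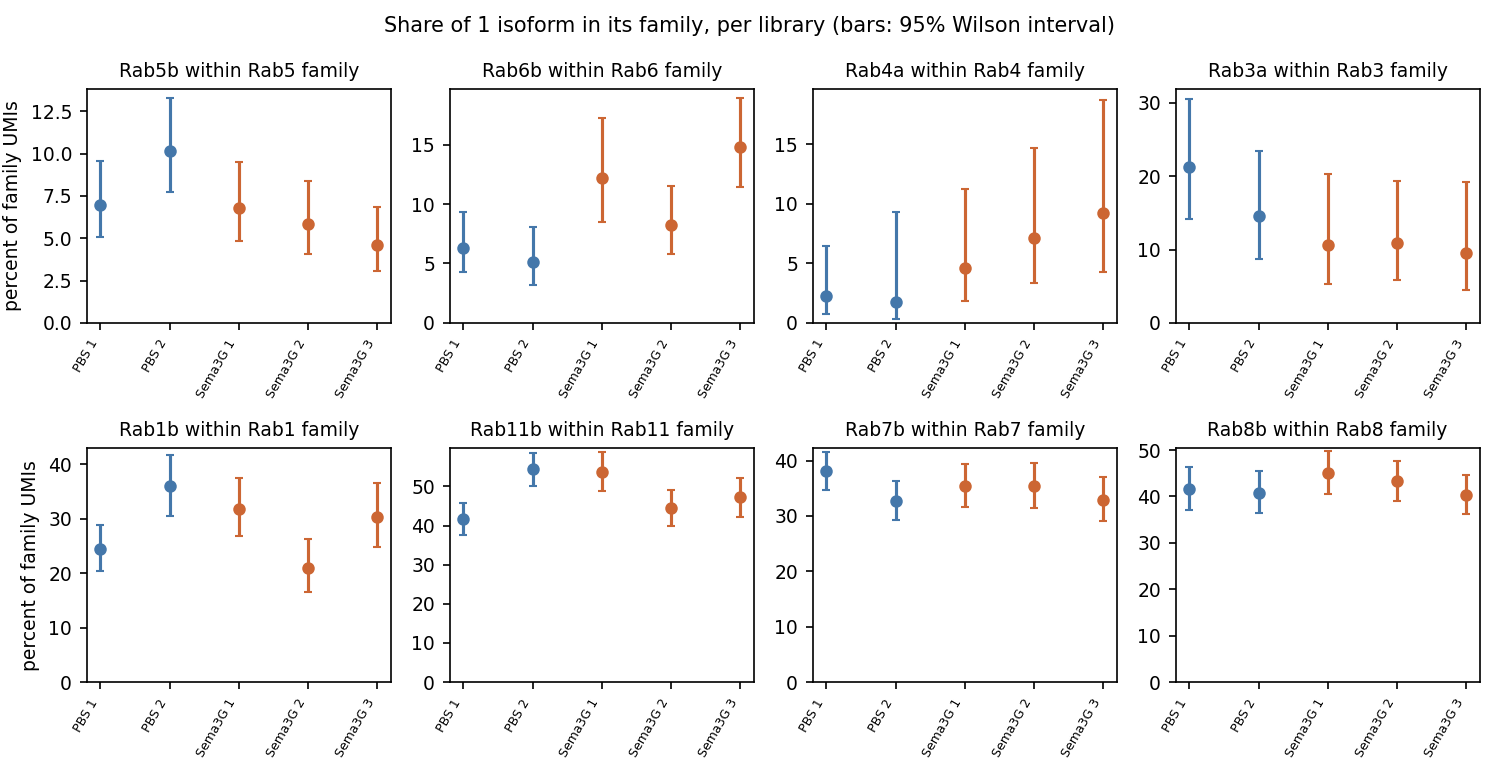
Percent of the UMIs of a Rab family held by 1 isoform in each library, with 95% Wilson intervals for counting error only, PBS in blue and Sema3G in orange. In the upper row (Rab5b, Rab6b, Rab4a, Rab3a) the points of the groups do not overlap, and in the lower row (Rab1b, Rab11b, Rab7b, Rab8b) they do.

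Grouped by the compartment at which they usually act, the Rabs of early endosomes and recycling held 42.6 ± 0.714% of all Rab UMIs with PBS and 43.7 ± 0.281% with Sema3G (SD, n = 2 and 3), groups that did not overlap but lay close, at up to 43.2 and from 43.4%. The late endosome, phagosome and lysosome-related Rabs held 23.4 and 23.2% with PBS and 22.0, 19.4 and 19.3% with Sema3G, a difference of -3.04 points. Secretory Rabs held 15.3 and 16.2% with PBS and 17.4, 19.5 and 19.2% with Sema3G, a difference of 2.98 points. The groups did not overlap for either, and both had the smallest p that an exact two-sided permutation test can give with 2 against 3 samples (p = 0.2 for each, adjusted p = 0.45). Since shares add up to a whole, one cannot be lower without another being higher. On the deposited scale the groups of 4 of the 7 tested secretory Rabs were separate with Sema3G lower, and of 0 with Sema3G higher. These counts stand beside 26.5% and 11.9% of all genes, and the median log2 fold change of the 7 was -0.06. By single gene, the share of Rab14 in all Rab UMIs differed most, at 12.6 ± 0.691% with PBS against 15.2 ± 0.788% with Sema3G (SD, n = 2 and 3, a difference of 2.62 points, groups not overlapping), followed by that of Rab10, at 6.33 and 6.35% against 7.0, 8.77 and 8.59% (1.78 points). Rab24 (4.61 and 6.02% against 4.15, 4.16 and 4.53%) and Rab7 (7.50 and 7.63% against 7.27, 6.09 and 6.23%) had the lowest differences, of -1.04 and -1.03 points. Endoplasmic reticulum and Golgi Rabs overlapped between the groups, at 17.2 ± 0.947 and 16.3 ± 0.625%.

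**Figure D4:**
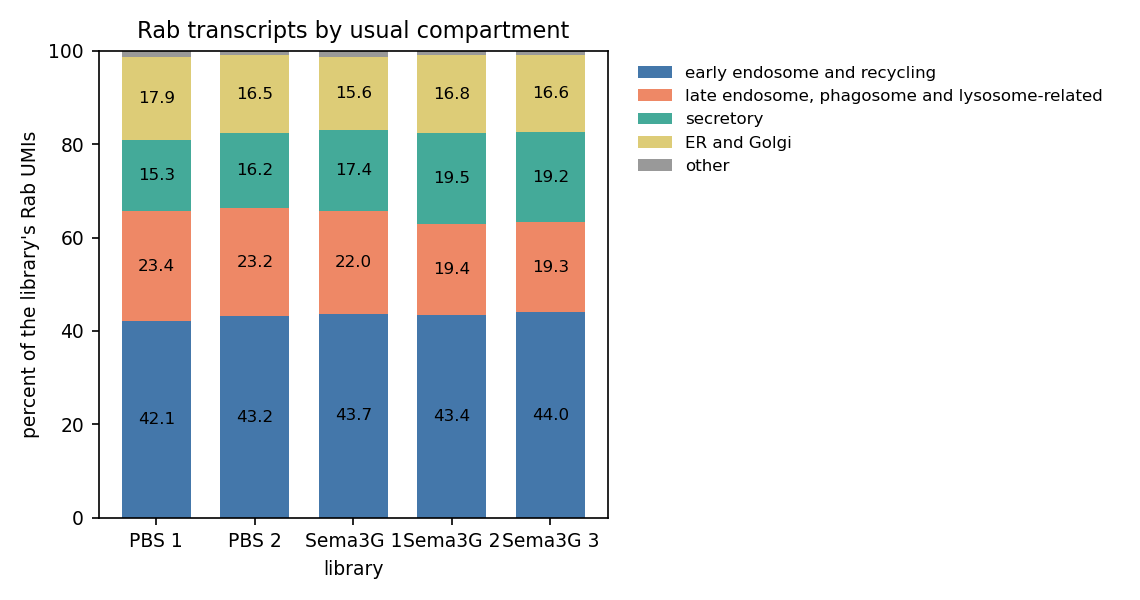
Percent of each library's Rab UMIs by the compartment at which the Rab usually acts, for the 2 PBS and 3 Sema3G libraries. The late endosome, phagosome and lysosome-related share is 23.4 and 23.2% with PBS and 19.3 to 22.0% with Sema3G, and the secretory share 15.3 and 16.2% against 17.4 to 19.5%.

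The proteins that work with Rabs were looked up as 4 lists, of which 114 genes were tested in all, and 3 of them rose with Sema3G, all effectors. The lists were drawn up from textbook roles. Of 39 tested effectors, 3 passed as higher and 0 as lower (beside 1.59% and 0.218% of all genes), and their median log2 fold change was -0.10. The groups did not overlap for 12 effectors with Sema3G higher and for 8 with Sema3G lower, beside 11.9% and 26.5% of all genes. Eea1, the tether that binds active Rab5 on early endosomes, had 131 and 194 UMIs under PBS and 307, 481 and 503 under Sema3G. Its level rose from 87.9 ± 22.5 to 207 ± 31.9 CPM (SD, n = 2 and 3), a log2 fold change of 1.23 (SE 0.21, adjusted p = 0.00431 from limma), and it passed whichever library was left out (adjusted p at most 0.0483, without Sema3G replicate 2). Gcc2, the golgin GCC185 that tethers vesicles at the trans-Golgi network, had 36 and 44 UMIs against 74, 107 and 134, a log2 fold change of 1.17 (SE 0.24, adjusted p = 0.0178 from limma). Myo5a, the myosin motor that carries Rab27a and Rab11 vesicles along actin, had 102 and 95 UMIs against 188, 227 and 209, a log2 fold change of 0.91 (SE 0.19, adjusted p = 0.0203 from limma). In all 3 genes every Sema3G library was above both PBS libraries on each of the 3 scalings, and edgeR called all 3. Gcc2 did not pass without PBS replicate 1, Sema3G replicate 2 or Sema3G replicate 3, where its adjusted p reached 0.163 from limma, nor did Myo5a without PBS replicate 2, Sema3G replicate 2 or Sema3G replicate 3, where it reached 0.168.

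**Figure D5:**
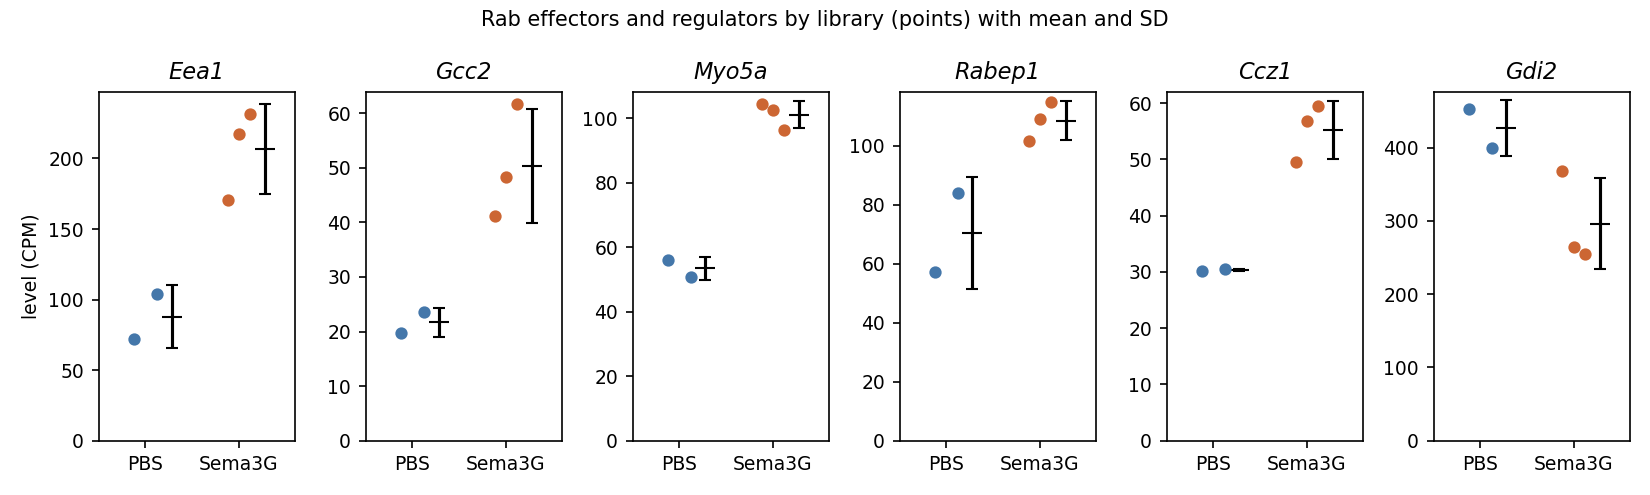
Level in CPM of 6 genes that act with Rab proteins, each point 1 library, with mean and SD beside them (n = 2 PBS in blue, n = 3 Sema3G in orange). Eea1, Gcc2 and Myo5a passed the test, and Rabep1, Ccz1 and Gdi2 (adjusted p = 0.110, 0.0505 and 0.144 from limma) did not.

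The other effectors ranged from Rilp, which links Rab7 to dynein, with 23 and 16 UMIs against 8, 11 and 11 (log2 fold change -0.97 and limma adjusted p = 0.160), to Rab11fip2, a Rab11 partner, with 3 and 3 against 8, 19 and 22 (log2 fold change 1.67 and limma adjusted p = 0.0640, 0.0406 from edgeR). Rabep1, a Rab5 partner that was named after its values were seen, had 57.1 and 84.0 CPM against 102, 109 and 115 CPM, with a limma adjusted p of 0.0419 under TMM scaling. Among the effectors 12 were at 0 in all libraries, including Mlph, Myrip and all of Sytl1 to Sytl5, the partners of Rab27 in melanocytes and secretory cells. Unc13d, the Rab27a partner of blood cells, was present with 29 and 28 UMIs against 29, 26 and 24.

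With all 5 libraries and the filter of 1 CPM, limma on the deposited scale called no gene of the other 3 lists, whereas edgeR called Ccz1 and Tbc1d20, and limma with TMM scaling called Ccz1, Tbc1d20 and Tbc1d32, all higher. Dennd1c, an exchange factor for Rab35 named after its values were seen, had 82 and 105 UMIs against 62, 52 and 48 (log2 fold change -0.92, SE 0.25, limma adjusted p = 0.0671, without Sema3G replicate 1 0.0209, and 0.112 in edgeR). The exchange factors (32 tested, median log2 fold change -0.17) ran from Rab3ip, which activates Rab8, with 8 and 11 UMIs against 1, 7 and 4, to Dennd4c, which activates Rab10, with 5 and 8 against 17, 12 and 23. Ccz1, which with Mon1 forms the complex that activates Rab7, was just above the threshold with 30.2 and 30.5 CPM against 49.5, 56.9 and 59.5 CPM (log2 fold change 0.84, SE 0.21, adjusted p = 0.0505 from limma, 0.0152 from edgeR), and was named after its values were seen. The GTPase-activating proteins (35 tested, median -0.05) ran from Tbc1d22b, with 5 and 14 UMIs against 4, 4 and 2, to Tbc1d32, a family member known from cilia, with 6 and 1 against 9, 17 and 29 (log2 fold change 1.82 and limma adjusted p = 0.0715, with TMM scaling 0.0439). The log2 fold change of Tbc1d32 was 1.08 (limma adjusted p = 0.213) without PBS replicate 2, 2.56 (0.0230) without PBS replicate 1 and 2.12 (0.0425) without Sema3G replicate 1. Tbc1d20, which switches off Rab1 and was named after its values were seen, had 8 and 6 UMIs against 16, 28 and 33 (log2 fold change 1.45, SE 0.37, adjusted p = 0.0536 from limma, 0.0288 from edgeR). The chaperones and prenylation enzymes (8 tested, median -0.22) ran from Rabggta, the alpha subunit of the enzyme that prenylates Rabs, with 46 and 60 UMIs against 38, 41 and 33, to Chml, the escort protein REP2, with 3 and 2 against 6, 6 and 16. Gdi2, the most abundant of these 8 and named after its values were seen, had 453 and 400 CPM against 368, 265 and 255 CPM (log2 fold change -0.54, SE 0.20, adjusted p = 0.144 from limma), with -0.34 under TMM scaling (adjusted p = 0.341 from limma) and -0.25 over listed genes (0.530, groups overlapping). Without Sema3G replicate 1, on the deposited scale, its limma adjusted p was 0.0273.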

How the data were processed

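Total RNA of 5 samples was made into QuantSeq 3′ libraries with UMIs and read as 75-base single ends. After mapping to mm10, the authors obtained UMI counts in Strand NGS, and the deposited values are CPM from EdgeR (edgeR 3.12 in the submitters' processing notes). Aligner, annotation and strand setting were not given in the sources used here. Columns of p-values, q-values and a ranking score, also deposited, hold the authors' own comparison and were not used. CPM values were whole multiples of 1 step per library, from which UMI counts were recovered (100% whole at a tolerance of 0.01).

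Because the unit is CPM, the main test was limma-trend (limma 3.58.1 in R 4.3.3) applied to log2(CPM + 1) for 10088 genes averaging 1 CPM or more, and edgeR (4.0.16) and DESeq2 (1.42.0) on the recovered counts were alternatives. Fold changes on this scale understate those of low genes. The scripts were tested on simulated data. Wilson and exact intervals and the floors cover counting error alone, whereas the intervals of log2 fold changes are from limma. Alternatives were other pseudocounts (0.1 and 5 CPM), filters, scalings and tests, a replicate block, and the omission of single libraries. TMM scaling together with the omission of Sema3G replicate 1, or with the block, was chosen after seeing the data. The members and the gene lists were chosen with earlier results of these data known. Values per library are given for the 8 most abundant Rab genes, the 5 highest and 5 lowest fold changes, Rab20, Rab27a, Rab32, Rab11a and the 3 Rab5 genes, and from each list for called genes and both extremes. Rab11b, Rab8b, Rab3d, Unc13d and others outside this rule were chosen after their values were seen. Overlapping exons came from GENCODE M21, and promoters from RefSeq (GRCm38.p6). The labels name 5 samples and each was counted as 1. Sema3G replicates 2 and 3 were the most similar pair (chi-square per degree of freedom 1.77, the other pairs 6.57 to 29.6), and whether they came from different cultures cannot be told from this.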

Additional observations from a re-analysis of the deposited data

How the results depend on the processing

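Of 489 recomputed fold changes of single named genes, 440 kept their direction and their side of the threshold, 23 changed sign, 20 came to pass the threshold and 6 no longer did. The depth left 11 detected Rab genes untested. Over all genes 182 were called (160 higher, 22 lower). This number was 108 with no filter, 328 (325 higher, 3 lower) with TMM scaling, 498 over listed genes, 304 with edgeR and 27 (without Sema3G replicate 2) to 710 (without Sema3G replicate 1) when 1 library was left out (581 without Sema3G replicate 1 under TMM). The median of the Rab genes was -0.36 on deposited CPM and became -0.16 with TMM, -0.083 over listed genes, -0.14 with edgeR and -0.13 with DESeq2 (where scaling and model change together), while the median of all genes moved from -0.22 to -0.04, 0.04, -0.04 and -0.03. Leaving out 1 library gave Rab medians of -0.44 to -0.20 and between 0 and 4 called Rab genes. Regulators and effectors called numbered 3, and 8 with TMM, 9 over listed genes, 6 with edgeR and 1 to 13 without 1 library, 13 (7 higher, 6 lower) without Sema3G replicate 1 and 1 without Sema3G replicate 2 or 3. Where a PBS library was left out, the remaining one was assumed to vary like the Sema3G libraries.

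Replicate numbers 1 and 2 occur in both groups. The labels do not say that a number marks a shared culture, and with only 2 shared numbers the correlations of same-numbered deviations, 0.173 and 0.111, do not establish a pairing. With a replicate block the count of all genes called was 573, of Rab genes 4 (Rab33b, Rab24, Rab11a and Rab6a, all lower, where 2.73% of all genes were called lower), and of regulators and effectors 8 (7 higher and Dennd1c lower). In that fit Sema3G replicate 3 has no partner and does not enter the difference. With TMM scaling and the block these became 503, 0 and 8, with a Rab median of -0.036.

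The following changed sign. Rab14 was 0.19 with TMM, 0.27 over listed genes, 0.19 with edgeR, 0.20 with DESeq2, 0.15 with TMM and the block, and -0.064 to 0.040 without 1 library (0.19 without Sema3G replicate 1 under TMM). Rab5c was 0.044, 0.13, 0.044, 0.051 and 0.026 in the same order, and 0.017 without Sema3G replicate 1 under TMM. Rab8a was 0.15, 0.23, 0.15, 0.15 and 0.093, and 0.19 without that library under TMM. Without PBS replicate 2, Rab10 was -0.024 (range over omitted libraries -0.024 to 0.14) and Rab23 -0.44 (-0.44 to 1.24), and without Sema3G replicate 1 Rab27a was -0.023 (-0.023 to 0.20). Rab8b, which the rule for named genes did not select, ranged from -0.034 to 0.093 without 1 library. The causes were not tested.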
